A study of Mus musculus with 8 samples.

Results

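The 7 genes examined here (*S1pr1*, *S1pr4*, *S1pr5*, *Cd69*, *Gpr183*, *Cd44* and *Selplg*) encode receptors and surface proteins through which T cells enter, stay in and leave lymphoid organs, and which are used to tell naive from memory cells. They were taken by name from the 52636 rows of the deposited table, and each name was found on a single row. RNA was sequenced from splenic CD4+ Foxp3+ cells (Tregs) and CD4+ Foxp3- cells (Tconvs), 200000 cells a library, of Foxp3 reporter mice of 6 to 8 weeks of age. The control groups came from CD27+/- mice, and the CD70Tg groups from CD11c-Cd70tg;CD27+/- mice. All 4 groups therefore carry a single functional *Cd27* allele, and none is wild type, although the sample descriptions name the controls WT and the table names them KO. In CD70Tg mice the CD11c promoter, active in dendritic cells, drives CD70, the ligand of CD27. Antibodies to CD25 were used in the magnetic step that preceded the sort of Tconvs, but not of Tregs, so that Tconvs were depleted of cells with surface CD25. The same step removed B cells, macrophages, dendritic cells, granulocytes, NK cells (antibodies to CD49b) and CD8 T cells (antibodies to CD8β) from both. Each group has 2 libraries, called the first and the second below in the order of the columns. Nothing states that they came from separate mice, so the p-values measure the spread between these libraries, which may be technical.

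Sphingosine-1-phosphate (S1P) is abundant in blood and lymph and scarce inside lymphoid tissue, and lymphocytes follow it out of the organ through the receptor S1PR1. CD69, which appears early after activation, binds S1PR1 and takes it from the surface, which holds the cell in the tissue. GPR183, also named EBI2, follows oxysterols and places cells at the border of T and B cell zones, while CD44 binds hyaluronan and PSGL-1, the product of *Selplg*, binds selectins once it carries the right sugars. High CD44 is a mark of effector and memory T cells.

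Of the 7 genes, *Gpr183* and *S1pr5* had the largest differences between the genotypes. *Gpr183* was lower in CD70Tg than in control Tregs, 2.12-fold on the scale tested. *S1pr5* was higher in CD70Tg than in control Tconvs, 9.56-fold on the same scale and 15.04-fold by the group means. That result did not pass without the second CD70Tg Tconv library. *S1pr5* was among the genes tested only because of the CD70Tg Tconv libraries, and did not pass when no minimum value was set for testing. *Cd69* fell in Tconvs, and in Tregs with an adjusted p-value of 0.047 that rose above 0.05 without any one Treg library. The main egress receptor *S1pr1* differed little between the genotypes but was over 2.2-fold lower in Tregs than in Tconvs, in both kinds of mice.

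The promoters of both genes are shown because their transcripts changed most, with that of *S1pr4* as a related receptor that did not pass in either subset. Each is the 250 bases before the transcription start given by RefSeq (GRCm38.p6), all on the minus strand, from 5′ to 3′, at chr9:21248444-21248693 for *S1pr5*, chr10:81500138-81500387 for *S1pr4* and chr14:121965194-121965443 for *Gpr183*. Capitals mark matches on either strand to CACCC, found in sites of KLF factors, and CAGGTG, the E-box that ZEB factors bind.
S1pr5: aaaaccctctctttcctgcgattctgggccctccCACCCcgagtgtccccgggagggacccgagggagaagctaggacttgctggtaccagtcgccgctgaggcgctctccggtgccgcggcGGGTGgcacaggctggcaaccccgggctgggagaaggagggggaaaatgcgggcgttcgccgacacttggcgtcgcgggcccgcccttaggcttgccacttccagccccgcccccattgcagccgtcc
S1pr4: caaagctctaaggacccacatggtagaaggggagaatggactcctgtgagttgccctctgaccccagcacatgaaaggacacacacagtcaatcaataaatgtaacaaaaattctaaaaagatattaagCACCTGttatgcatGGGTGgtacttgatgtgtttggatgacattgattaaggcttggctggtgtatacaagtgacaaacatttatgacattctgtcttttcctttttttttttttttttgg
Gpr183: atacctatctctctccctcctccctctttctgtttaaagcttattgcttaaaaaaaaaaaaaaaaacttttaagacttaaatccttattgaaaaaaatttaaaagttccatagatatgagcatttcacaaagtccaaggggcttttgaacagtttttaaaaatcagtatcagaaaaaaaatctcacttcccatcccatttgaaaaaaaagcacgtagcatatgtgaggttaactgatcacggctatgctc
The *S1pr5* window held CACCC at 2 places, starting 216 and 128 bases before the start, the latter on the other strand. The *S1pr4* window held CACCC 107 and CAGGTG 121 bases before the start, both on the other strand. No match was found in the *Gpr183* window. None of the 3 windows held AGGTGTGA (T-box factors), TGANTCA (AP-1) or TGACGTCA (CREB and ATF factors). CAGGTG and AGGTGTGA share letters and can overlap. Of 32851 promoter windows of the same length, 52.0% held CACCC, 17.2% CAGGTG, 1.1% AGGTGTGA, 6.7% TGANTCA and 1.5% TGACGTCA. The windows differed in base composition, with 69.2% G and C in *S1pr5*, 38.8% in *S1pr4* and 32.0% in *Gpr183*, where the median window has 52.4%. *Cd44* was in the same RefSeq table and held none of the 5 words. *S1pr1*, *Cd69* and *Selplg* were not matched.

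Values are given as deposited, per 20 M reads, where 1 read per M is worth 20. In the libraries with a step over 2 the low values recur in even steps. The size of the step, the worth of a single read, was fitted in every library. It gave 6.94 to 33.31 M reads on genes in Tconv libraries and 1.91 to 4.57 M in Treg libraries. The numbers for the deepest library (33.31 M) and the first control Tconv library (19.76 M) are less certain. A value worth 3 reads was used as the floor for detection, and lay between 1.8 and 8.6 in Tconv libraries and between 13.1 and 31.3 in Treg libraries. These floors cover counting error only. Sorted cells had the markers of their labels, with *Foxp3* between 19769 and 21367 in Treg libraries and between 1039 and 1497 in Tconv libraries. *Cd27* was between 5173 and 6123 in Tregs and between 2980 and 3359 in Tconvs. *Cd70*, at 3 and 4 in control Tconvs and 0 and 9 in control Tregs, was at 15 and 28 in CD70Tg Tconvs and at 11 and 44 in CD70Tg Tregs. The control values and 1 of the CD70Tg Treg values (11) are at or under the floor of their libraries. In bulk RNA, fewer cells with a transcript and less of it per cell cannot be told apart.

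One limma model over the 8 libraries was fitted to log2(value + 5) of the 12816 genes that reached 60 in 2 or more libraries, and Benjamini-Hochberg adjustment ran over all of them. Genes are said to have risen or fallen at an adjusted p-value under 0.05, and were called where the absolute log2 fold change was also over 1. All 7 genes passed the minimum, *S1pr5* through the CD70Tg Tconv libraries alone. In Tregs, 1 of the 7 rose and 3 fell, against 7.4% of all genes tested that passed in either direction, and 1 was called, against 3.6% of all genes. In Tconvs, 1 rose and 2 fell, against 8.81% of all genes, and 1 was called, against 4.65%. The gene that rose and was called there was *S1pr5*, so that this count is not independent of the minimum. Limma-voom on the estimated numbers of reads passed 2 of the 7 in Tregs and 4 in Tconvs, against 1.97% and 15.7% of all genes. The median log2 fold change of the 7 genes was -0.22 in Tregs and 0.13 in Tconvs, where that of all genes was -0.05 and 0.01.

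**Figure D1:**
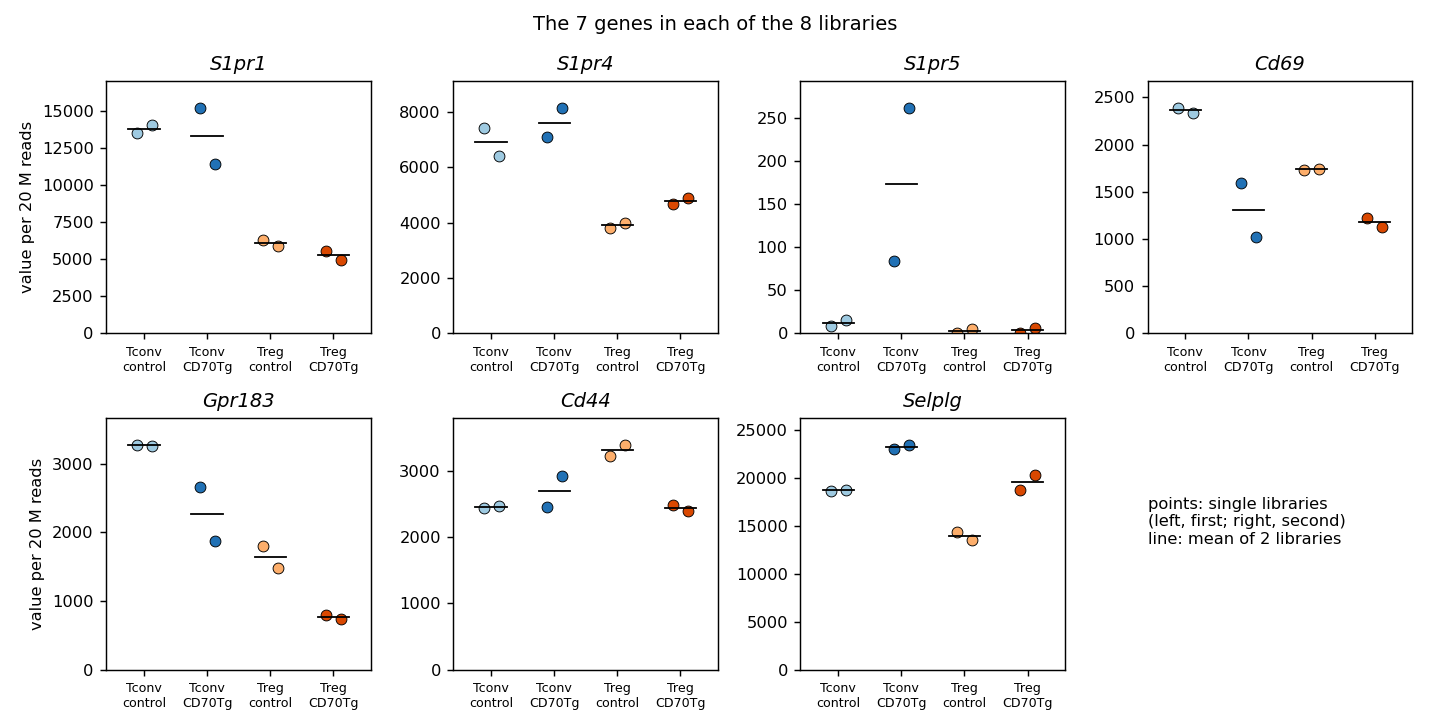
Value per 20 M reads (vertical axis, from 0) of each of the 7 genes in each library, by group (horizontal axis), with 1 point per library, the first library left and the second right, and a line at the mean of the 2 libraries. *Cd69* and *Gpr183* lie lower in CD70Tg than in control cells of both subsets, *S1pr5* is near 0 everywhere but in the CD70Tg Tconv libraries (84 and 262), and *S1pr1* separates Tconvs from Tregs.

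*S1pr1* (ENSMUSG00000045092), on chromosome 3 of mm10 (115710433 to 115715072, minus strand), is the receptor that draws lymphocytes out of lymphoid organs. Its values were 13486 and 14068 in control Tconvs, 15193 and 11396 in CD70Tg Tconvs, 6294 and 5894 in control Tregs, and 5559 and 4943 in CD70Tg Tregs. The CD70Tg Tconv libraries lay on both sides of the controls, and both CD70Tg Treg libraries lay below both control Treg libraries. The log2 fold change was -0.07 in Tconvs (95% interval -0.35 to 0.22, adjusted p = 0.87) and -0.22 in Tregs (-0.50 to 0.07, adjusted p = 0.38).

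By contrast, the subsets were far apart for this receptor. *S1pr1* was 2.26-fold lower in control Tregs than in control Tconvs (log2 fold change -1.18, standard error 0.13, adjusted p = 3.1e-06) and 2.51-fold lower in CD70Tg Tregs than in CD70Tg Tconvs (-1.33, standard error 0.13, adjusted p = 1.1e-06). No Treg library reached the lowest Tconv library. *Klf2*, which encodes the factor that drives *S1pr1* in resting T cells, had a log2 fold change of 0.00 in Tregs (adjusted p = 0.99), while that in Tconvs was 0.03 (adjusted p = 0.95). Between control Tregs and control Tconvs it was -0.83 (adjusted p = 7.4e-05).

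*S1pr4* (ENSMUSG00000044199; chromosome 10, 81497747 to 81500132, minus strand), a receptor of the same family found mostly on blood and lymphoid cells, followed the same order of subsets. Its values were 7425 and 6410 in control Tconvs, 7088 and 8145 in CD70Tg Tconvs, 3790 and 3998 in control Tregs, and 4681 and 4878 in CD70Tg Tregs. The libraries of the genotypes overlapped in Tconvs and did not in Tregs, where the CD70Tg values were higher. The log2 fold change of 0.30 in Tregs (interval 0.05 to 0.54) had an adjusted p-value of 0.15, and that of 0.14 in Tconvs (-0.11 to 0.39) one of 0.61. Control Tregs had 1.77-fold less than control Tconvs (-0.82, adjusted p = 3.2e-05), and CD70Tg Tregs 1.59-fold less than CD70Tg Tconvs (-0.67, adjusted p = 3.0e-04).

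*S1pr5* (ENSMUSG00000045087; chromosome 9, 21242912 to 21248443, minus strand) encodes the S1P receptor best known from NK cells, which use it to leave the bone marrow and lymph nodes. It had 8 and 15 in control Tconvs and 84 and 262 in CD70Tg Tconvs, which is about 7 reads in each control library and about 29 and 436 reads in the CD70Tg libraries. In Tregs it was at 0 and 5 in controls and at 0 and 6 in CD70Tg mice, at most 1 read in a library. Both CD70Tg Tconv libraries thus lay above the 6 others, and the second was far above the first.

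The log2 fold change of *S1pr5* in Tconvs was 3.26 (standard error 0.66, interval 1.87 to 4.65, adjusted p = 0.0035). Its size depended on the processing, from 2.45 with a pseudocount of 20 to 4.32 by limma-voom. Without the second CD70Tg Tconv library it was 2.46 and no longer passed (adjusted p = 0.16), and the adjusted p-value was 0.063 with a pseudocount of 1 and 0.088 with no minimum value. Since *S1pr5* reached the minimum only where it was high, its place among the genes tested rests on that difference. In Tregs all libraries were under the floor of 3 reads, so that no fold change is given, and a level as low as that of control Tconvs could not be seen there. *S1pr5* was at least 7.26-fold lower in CD70Tg Tregs than in CD70Tg Tconvs, with the mean floor of the 2 Treg libraries in place of their values. With only the first or only the second CD70Tg Tconv library this limit was 3.53-fold and 10.99-fold. Over all genes, the test of unequal responses gave *S1pr5* an adjusted p-value of 0.14, and since it was fitted on Treg values under the floor its size is not given. A gene model on the opposite strand, *Gm48303*, shares 2.0% of the exon length of *S1pr5*, and the strand setting of the read counting is not given in the sources used here.

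Of 4 markers of NK cells, 1 could be tested, *Klrb1c*, and it fell in Tconvs. The sum of the 4 was between 417 and 444 in control Tconvs and between 81 and 88 in CD70Tg Tconvs, most of it *Klrb1c*, with 403 and 423 in controls and 75 and 68 in CD70Tg mice. *Klre1* and *Klra8* did not exceed 21 in any Tconv library and overlapped between the genotypes. *Ncr1*, the defining NK receptor, was at 0 in both control libraries and at 0 and 2 in the CD70Tg libraries. Of 2 markers of CD8 T cells, which also make *S1pr5* as effectors, the sum was between 681 and 720 in control and between 1563 and 1590 in CD70Tg Tconvs. *Cd8a* went from 17 and 28 to 508 and 608, and *Cd8b1* from 703 and 653 to 1055 and 982. In Tregs *Cd8a* was at 25 and 71 in control and 262 and 223 in CD70Tg libraries, where *S1pr5* was not seen above the floor. NK and CD8 T cells had been depleted by antibodies before the sort of CD4+ cells. The part of CD8 transcripts in the value of *S1pr5* was not tested.

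*Cd69* (ENSMUSG00000030156; chromosome 6, 129267325 to 129275436, minus strand) is the early activation marker that opposes S1PR1. Its values were 2387 and 2336 in control Tconvs, 1588 and 1016 in CD70Tg Tconvs, 1728 and 1743 in control Tregs, and 1223 and 1126 in CD70Tg Tregs. In each subset both CD70Tg libraries were below both controls, and the spread was widest in CD70Tg Tconvs. *Cd69* fell in Tconvs by 0.89 on the log2 scale (standard error 0.16, adjusted p = 0.0017), to 55.1% of the control mean. The log2 fold change was -0.57 without the second CD70Tg Tconv library (adjusted p = 0.022) and -1.21 without the first (adjusted p = 2.4e-05). In Tregs it fell by 0.56 (standard error 0.16, adjusted p = 0.047), to 67.7% of the control mean. The result in Tregs was close to the threshold, and the adjusted p-value ranged from 0.0026 to 0.26 over 13 alternative settings, with 3 of them under 0.05. It did not pass without any one of the 4 Treg libraries (0.13 to 0.23). With the minimum value dropped, the adjusted p-value in Tconvs was 0.081.

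The difference between the responses, 0.33, had an interval of -0.16 to 0.82 and an adjusted p-value of 0.68. Control Tregs had less *Cd69* than control Tconvs (-0.44, adjusted p = 0.036, with 5 of 12 alternative settings under 0.05, and 0.085 to 0.12 without any one of the 4 control libraries). The value in CD70Tg mice, -0.11, had an interval of -0.46 to 0.23 (adjusted p = 0.6), and the libraries of the subsets overlapped there. It depended on single libraries, with -0.43 without the second CD70Tg Tconv library and 0.21 without the first.

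*Gpr183* (ENSMUSG00000051212; chromosome 14, 121952551 to 121965195, minus strand), the oxysterol receptor, lies inside *Ubac2*, a gene on the opposite strand with which it shares 0 exon bases. It had 3277 and 3256 in control Tconvs, 2663 and 1869 in CD70Tg Tconvs, 1801 and 1485 in control Tregs, and 795 and 745 in CD70Tg Tregs. The groups did not overlap in either subset, and CD70Tg Tregs had the lowest values of all. In Tregs *Gpr183* fell by 1.08 on the log2 scale (standard error 0.15, interval -1.41 to -0.76, adjusted p = 3.6e-04), to 46.9% of the control mean. It passed at an adjusted p-value under 0.05 in 13 of 13 alternative settings, with the log2 fold change between -1.22 and -0.94. The value of -0.94, without the first control Treg library (adjusted p = 0.012), is under the threshold on the fold change.

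In Tconvs *Gpr183* fell by 0.55 (standard error 0.15, adjusted p = 0.034), to 69.4% of the control mean. Without the second CD70Tg Tconv library the log2 fold change was -0.29 (adjusted p = 0.34), without the first or the second control Tconv library the adjusted p-value was 0.11 and 0.12, and 6 of 13 alternative settings gave an adjusted p-value under 0.05. The responses of the subsets differed by -0.53 (interval -0.99 to -0.07), with an unadjusted p-value of 0.026 and an adjusted one of 0.37 by limma. The subsets also differed within each genotype. Control Tregs had 1.99-fold less *Gpr183* than control Tconvs (a log2 fold change just short of the threshold, adjusted p = 7.3e-05), and CD70Tg Tregs 2.89-fold less than CD70Tg Tconvs (-1.53, adjusted p = 1.2e-06). *Ubac2*, whose intron holds *Gpr183*, had a log2 fold change of -0.04 in Tregs (adjusted p = 0.88). In Tconvs it was 0.09 (adjusted p = 0.78).

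*Cd44* (ENSMUSG00000005087; chromosome 2, 102811141 to 102901665, minus strand), the hyaluronan receptor and memory marker, had 2440 and 2465 in control Tconvs, 2461 and 2919 in CD70Tg Tconvs, 3222 and 3394 in control Tregs, and 2487 and 2393 in CD70Tg Tregs. Control Tregs stood above the 6 other libraries, and the CD70Tg Tregs lay on both sides of the control Tconvs. *Cd44* fell in Tregs by 0.44 on the log2 scale (standard error 0.12, adjusted p = 0.031), to 73.8% of the control mean, with 7 of 13 alternative settings under 0.05. Without any one of the 4 Treg libraries the adjusted p-value was between 0.12 and 0.21. In Tconvs the log2 fold change was 0.13 (interval -0.12 to 0.38, adjusted p = 0.65). The difference between the responses was -0.57 (interval -0.92 to -0.21), with an unadjusted p-value of 0.0035 and an adjusted one of 0.15 by limma. Without the first CD70Tg Tconv library it was -0.69 and passed (adjusted p = 0.031). In control mice *Cd44* was higher in Tregs than in Tconvs, by 0.43 (adjusted p = 0.007, and 0.075 without the second control Treg library). The corresponding value in CD70Tg mice was -0.14 (interval -0.38 to 0.11, adjusted p = 0.37). The table gives 1 value for the gene, and the splice forms of *Cd44* are not told apart.

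*Selplg* (ENSMUSG00000048163; chromosome 5, 113818536 to 113832644, minus strand) encodes PSGL-1, the ligand of P-selectin. Its values were 18649 and 18689 in control Tconvs, 23001 and 23418 in CD70Tg Tconvs, 14305 and 13512 in control Tregs, and 18745 and 20254 in CD70Tg Tregs. In both subsets each CD70Tg library was above each control library. *Selplg* rose in Tregs by 0.49 (standard error 0.12, adjusted p = 0.018), to 140.2% of the control mean, with an adjusted p-value under 0.05 in 8 of 13 alternative settings. Without any one of the 4 Treg libraries it was between 0.081 and 0.16. In Tconvs the log2 fold change of 0.31 (interval 0.07 to 0.56) had an adjusted p-value of 0.13. It passed in 1 of 13 alternative settings, limma-voom (adjusted p = 0.015). The difference between the responses was 0.17 (interval -0.18 to 0.52, adjusted p = 0.79). Control Tregs had less *Selplg* than control Tconvs (-0.43, adjusted p = 0.0077, and 0.086 without the second control Treg library), and the value in CD70Tg mice was -0.25 (adjusted p = 0.095).

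**Figure D2:**
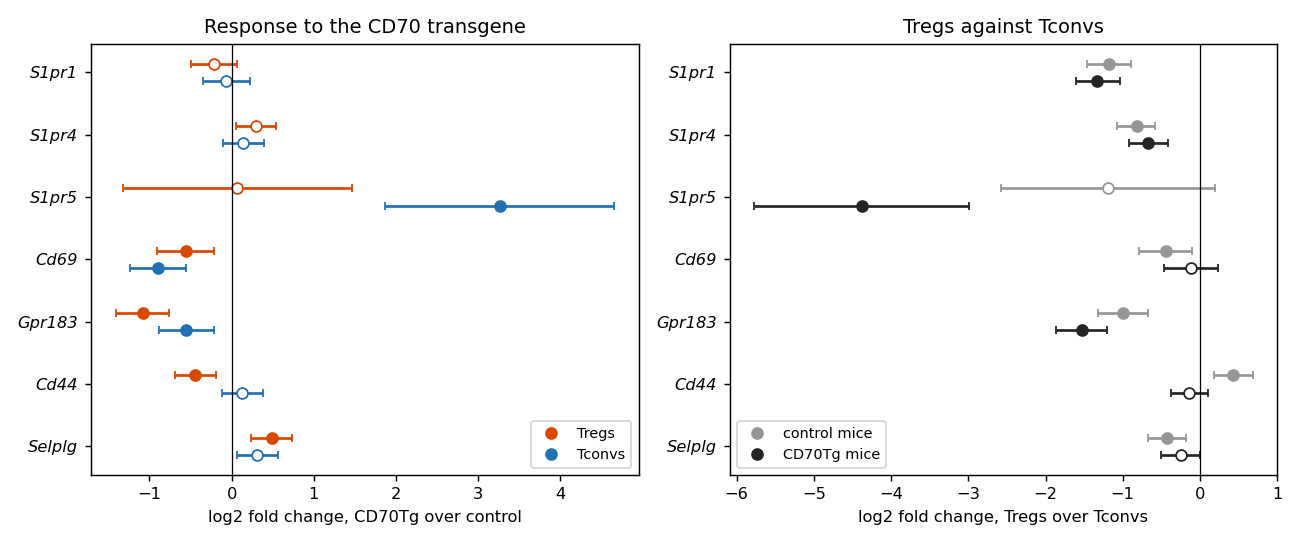
Log2 fold change (horizontal axis) of each of the 7 genes with its 95% interval from limma, as CD70Tg over control in Tregs and Tconvs (left) and as Tregs over Tconvs in control and CD70Tg mice (right). Filled points have an adjusted p-value under 0.05. *Gpr183* and *Cd69* are left of 0 with filled points in both subsets on the left panel, and the fitted values of *S1pr5* that involve Tregs rest on libraries under the floor of 3 reads.

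None of the 7 genes passed the test of the difference between the responses of Tregs and Tconvs (limma), against 1.02% of all genes that passed and 0.882% that were called. At an unadjusted p-value under 0.05 there were 3 (*S1pr5*, *Cd44* and *Gpr183*), against 10.7% of all genes. The value of *S1pr5* rests on Treg libraries under the floor and on a gene tested only because of the CD70Tg Tconv libraries. Limma-voom on the estimated numbers of reads gave 0 at an adjusted p-value under 0.05, against 0.499%. Between Tregs and Tconvs of control mice, 1 of the 7 was higher in Tregs and 5 lower, against 45.8% of all genes that passed in either direction, and 1 was called (*S1pr1*), against 19.2% of all genes. In CD70Tg mice 0 were higher in Tregs and 4 lower, against 42.7% of all genes, and 3 were called (*S1pr1*, *S1pr5* and *Gpr183*), against 17.2%. Of these, *S1pr5* was among the genes tested only because of the CD70Tg Tconv libraries, so that its call is not independent of the minimum. The median log2 fold change of the 7 genes, Tregs over Tconvs, was -0.82 in control and -0.67 in CD70Tg mice, with 0.07 and -0.02 for all genes. These comparisons share libraries with those of the genotypes.

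Levels of different genes were compared as reads per M and per kb of exon. In control Tconvs the order was *S1pr1* (226 ± 6.72, SD, n = 2), *Selplg* (218.5 ± 0.283), *S1pr4*, *Gpr183*, *Cd69*, *Cd44* and *S1pr5*, and only *Cd69* (18.1 ± 0.283) and *Cd44* (18.1 ± 0.134) could not be told apart by their libraries. In CD70Tg Tconvs *Selplg* came first (272 ± 3.47), before *S1pr1* (218 ± 44.1). In control Tregs *Selplg* (163 ± 6.58) was followed by *S1pr1* and *S1pr4* (81.6 ± 3.08). In CD70Tg Tregs *S1pr4* (100.1 ± 2.91) came before *S1pr1* (86.2 ± 7.15), and *Cd44* (18.0 ± 0.488) before *Gpr183* (13.3 ± 0.615), each the reverse of the order in control Tregs. *S1pr5* was the lowest in all 4 groups, with 3.46 ± 2.52 in CD70Tg Tconvs, under *Cd69* in the same libraries.

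**Figure D3:**
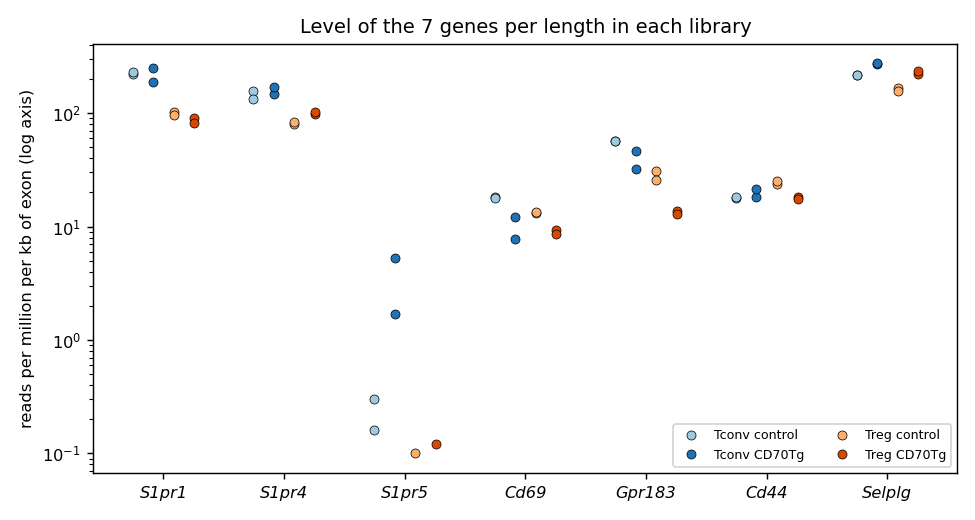
Level of each of the 7 genes in reads per M and per kb of exon (vertical log axis) in each library, coloured by group; libraries at 0 (1 of each Treg group for *S1pr5*) cannot be drawn on a log axis. *S1pr1*, *S1pr4* and *Selplg* are in all groups well above *Cd69* and *Cd44*, and *S1pr5* is the lowest.

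The CD70Tg Tconv libraries differed from each other more than the control Tconv libraries did for each of these genes but *S1pr4*, whose 2 groups were spread about alike. The second of these libraries, which is also the deepest by the estimate from its step, was farther from controls. It had 0.430 of the control mean of *Cd69* where the first had 0.672, and 0.572 of that of *Gpr183* where the first had 0.815. *S1pr5* was at 22.8 times the control mean in the second and at 7.30 times in the first. *Tbx21*, which encodes T-bet, a factor known to drive *S1pr5* in NK cells, was at 2368 in the second and 848 in the first, with 819 and 635 in controls. *Zeb2*, another factor of terminal effector cells, was at 172 and 73, with 41 and 30 in controls. Their log2 fold changes in Tconvs, 0.97 and 1.55, had adjusted p-values of 0.066 and 0.051. These genes were singled out after their values were seen, and no test was made across the 2 libraries.

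**Figure D4:**
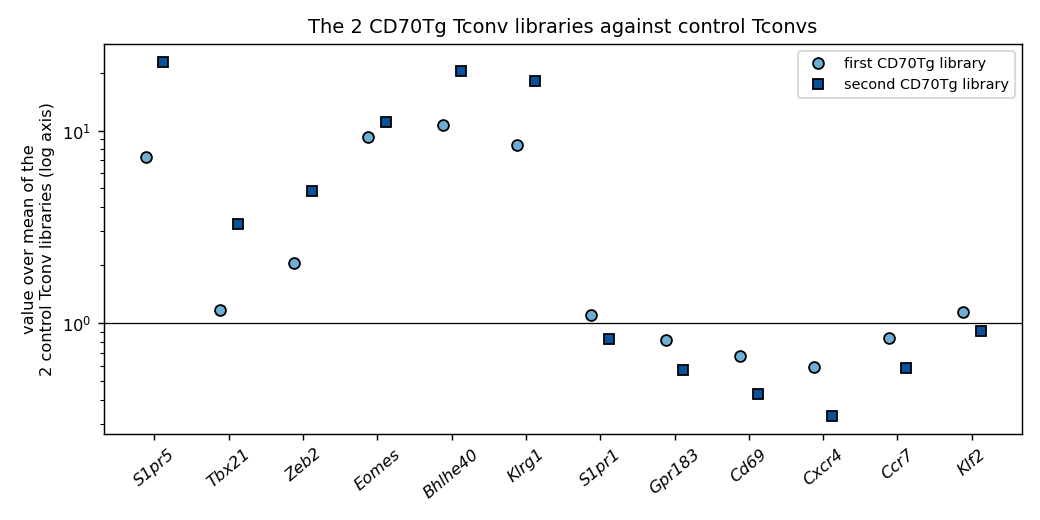
Value of 12 genes in the first (circles) and the second (squares) CD70Tg Tconv library, divided by the mean of the 2 control Tconv libraries (vertical log axis, line at 1). The second library lies farther from the line than the first for each gene drawn but *Klf2*.

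The genes around these receptors were read from lists of their pathways. Of 20 genes that make, break down or export S1P or relay its signal, 14 could be tested, and none passed by limma in Tregs or in Tconvs, where 7.4% and 8.81% of all genes did. At an unadjusted p-value under 0.05 there were 3 in Tregs (21.6% of all genes) and 1 in Tconvs (19.1% of all genes). Limma-voom gave 0 and 1 at an adjusted p-value under 0.05, where it passed 1.97% of all genes in Tregs and 15.7% in Tconvs, shares that also hold for its counts in the lists that follow. *S1pr2*, a receptor that holds germinal centre cells in place, was at 504 and 388 in control and 571 and 767 in CD70Tg Tconvs (adjusted p = 0.079). *S1pr3* did not exceed 11 in any library. Of 4 genes that make or break down the oxysterol ligands of GPR183, 1 could be tested, and it is not one that makes them. *Ch25h* and *Cyp7b1* were at 0 in all 8 libraries.

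Of 15 transcription factors of egress and tissue residency, 5 rose in Tregs and 4 rose and 1 fell in Tconvs, where 7.4% and 8.81% of all genes passed, with medians of the log2 fold change of 0.15 and 0.26. Limma-voom passed 2 in Tregs and 8 in Tconvs. *Eomes*, which drives effector and memory programmes, rose by 4.09 in Tregs (adjusted p = 2.2e-09). Its rise in Tconvs was 3.33 (adjusted p = 4.2e-09). *Bhlhe40*, a factor of tissue-resident T cells, rose in Tregs by 2.06 (adjusted p = 7.3e-05). In Tconvs it rose by 3.91 (adjusted p = 1.6e-08), and *Prdm1*, which encodes Blimp-1, by 2.04 in Tconvs (adjusted p = 1.5e-07). *Tbx21* rose by 1.28 in Tregs (adjusted p = 0.019). The one that fell in Tconvs was *Foxo1*, upstream of *Klf2*, by 0.51 (adjusted p = 0.012).

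Of 10 genes of lymph node entry and retention, 2 rose and 1 fell in Tregs (7.4% of all genes), and 3 rose and 1 fell in Tconvs (8.81% of all genes). By limma-voom 2 and 6 passed. *Cxcr4*, the CXCL12 receptor that keeps lymphocytes in marrow and lymphoid tissue, fell in both subsets, with -1.14 in Tregs (adjusted p = 0.0023), while Tconvs had -1.18 (adjusted p = 9.4e-04). *Itgae*, which encodes the integrin CD103 of epithelial residency, rose in Tregs by 1.38 (adjusted p = 2.0e-04). Its rise in Tconvs was 1.78 (adjusted p = 5.7e-06), from 63 and 107 to 277 and 315. *Itga4*, a chain of the integrin VLA-4, rose in Tconvs by 1.06 (adjusted p = 8.6e-06).

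Of 12 tested genes that build the sugars of selectin ligands, 0 rose and 1 fell in Tregs, where 7.4% of all genes passed, and 4 rose and 1 fell in Tconvs, where 8.81% did, with a median log2 fold change of -0.04 and 0.29. With limma-voom 0 passed in Tregs, *St3gal1* included, and 6 in Tconvs. *Fut7*, the fucosyltransferase without which PSGL-1 does not bind selectins, rose in Tconvs by 2.14 (adjusted p = 3.2e-04), from 32 and 28 to 116 and 190. *Gcnt1*, which branches the same glycans, rose in Tconvs by 1.51 (adjusted p = 0.019) and *St3gal6*, a sialyltransferase, by 1.08 (adjusted p = 0.041). In Tregs *Fut7* had a log2 fold change of 0.92 (adjusted p = 0.099). The gene that fell in both subsets was *St3gal1*, a sialyltransferase that caps unbranched glycans, with -0.54 in Tregs (adjusted p = 0.0081), while Tconvs had -0.62 (adjusted p = 0.0017).

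Of 17 tested genes that link CD44 to the cytoskeleton, make or bind hyaluronan, or mark memory cells, 3 rose and 1 fell in Tregs (7.4% of all genes), and 6 rose and 0 fell in Tconvs (8.81% of all genes). There were 3 and 11 by limma-voom. *Klrg1*, a receptor of terminal effector cells, rose in Tregs by 1.49 (adjusted p = 0.0056). Its rise in Tconvs was 3.58 (adjusted p = 4.7e-07). *Cxcr3*, a receptor of type 1 effector and memory cells, rose in Tregs by 1.64 (adjusted p = 1.4e-05). In Tconvs the rise was 1.25 (adjusted p = 4.6e-05). *Ly6c2* rose in Tregs by 1.41 (adjusted p = 0.0064), and *Il2rb*, a chain of the receptors for IL-2 and IL-15, rose in Tconvs by 1.05 (adjusted p = 2.4e-05). The ERM proteins that tether CD44 did not pass in either subset, with *Ezr* at -0.06 and -0.11 and *Msn* at -0.02 and -0.09 in Tregs and Tconvs. The one that fell in Tregs was *Bcl2*, a survival gene, by 0.97 (adjusted p = 6.3e-05). In Tconvs it rose by 0.47 (adjusted p = 0.012). The responses of the subsets differed by -1.44 (adjusted p = 2.6e-04). In this list 4 genes passed that test by limma, where 1.02% of all genes did, *Klrg1* (-2.09, adjusted p = 0.021) among them. It was also passed by 2 of the transcription factors and 1 of the genes of lymph node entry and retention. In the S1P and selectin ligand lists 0 passed it.

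B cells and myeloid cells also make *Gpr183*, *Cd44* and *Cd69*. The sum of 5 B cell markers was between 151 and 176 in control and between 61 and 89 in CD70Tg Tconvs, and between 254 and 379 in control and between 426 and 473 in CD70Tg Tregs. The sum of 7 myeloid markers was between 1475 and 1481 in control and 890 and 1163 in CD70Tg Tconvs, and between 2565 and 2605 in control and 2603 and 2867 in CD70Tg Tregs. In CD70Tg Tregs, where *Gpr183*, *Cd44* and *Cd69* fell, the B cell sum was above that of controls. The myeloid sums overlapped, but of the 5 myeloid markers tested 2 rose in Tregs and 1 fell, where 7.4% of all genes passed. *S100a9*, of neutrophils, was at 95 and 104 in CD70Tg Tregs and at 0 and 5 in control Tregs, which is under the floor, and it reached the minimum only through the libraries where it was high. *Itgam* had a log2 fold change of 1.13 (adjusted p = 0.013), while *Csf1r*, of macrophages, had -0.67 (adjusted p = 0.029). Limma-voom passed 1 of the 5. In Tconvs both sums were lower, as were *Gpr183* and *Cd69*, though of the 5 myeloid markers tested 0 rose and 1 fell there (*Itgam*, -0.95, adjusted p = 0.027). The part of these markers in the values of either subset was not tested. Of the other markers, the erythroid *Hbb-bs* and *Hba-a1* rose in CD70Tg Tregs, by 1.61 (adjusted p = 0.014) and 1.63 (adjusted p = 0.0058), with the sum of 5 platelet and erythroid markers between 399 and 1083 in control and between 1612 and 2561 in CD70Tg Tregs. Neither passed by limma-voom (0 of 2). The sum of 5 dendritic cell markers was between 63 and 133 in control and between 180 and 307 in CD70Tg Tconvs. In Tregs it was between 74 and 129 in control and between 187 and 201 in CD70Tg libraries. The only one tested, *Itgax*, rose in Tconvs by 1.76 (adjusted p = 0.015), from 31 and 57 to 101 and 236. *Xcr1* went from 7 and 26 to 49 and 56 in Tconvs, and *Clec9a* overlapped. *Siglech* was at 6 and 28 in control and 0 and 3 in CD70Tg Tconvs, and *Flt3* at 13 and 17 and at 12 and 7.

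For the genes called in at least one comparison, the 3 tested genes with the most similar pattern were found by the root mean square difference of log2(value + 5) over the 8 libraries, each gene centred on its own mean. For *S1pr1* these were *Mylip* (0.10), *Ikzf1* (0.11) and *Stt3b* (0.13). *Nsg2* (0.16), *Fgf13* (0.18) and *Gpatch4* (0.18) were nearest to *Gpr183*. The nearest to *S1pr5* were much less alike, with 0.55 for *Ctla2a*, 0.60 for *Hrh4* and 0.66 for *Kcnk5*. The libraries share their depth and scaling, so that these differences are a description only.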

How the data were processed

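RNA was sequenced from 8 libraries of sorted Tregs and Tconvs, 2 in each of 4 groups. The authors removed adapters with Trimmomatic 0.36, mapped reads to mm10 with STAR 2.5.3 and counted them per gene with HTSeq 0.9.1. The deposited values, used here as scores, had been brought by the authors to a common total of 20 M reads and rounded upward, which hides the number of reads behind a value. The annotation and strand setting are not given in the sources used here.

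Libraries were grouped by the column names, the columns named KO being taken as the CD27+/- controls. The 4131 clone-named rows were left out: in the 6 libraries with a step over 2, between 3.3% and 51.1% of their values up to 300 fell on the step of their library, against 100% of those of the other rows. Of 97 names on more than one row, the row with the largest total kept the name. The step was fitted by likelihood to the frequencies of the low values of a library. Values were tested with limma 3.58.1 in R 4.3.3 (trend in the prior variance, 12.3 prior degrees of freedom) with 1 coefficient per group, after log2(value + 5). Log2 fold changes on this scale understate the change of genes with low values. The methods of the study tested counts with DESeq2, which is not suited to scaled values and was not used here. No permutation test was made, since 2 libraries against 2 cannot give a low p-value.

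On simulated data with 200 of 12816 genes changed 4-fold, the Treg comparison recovered 98% (215 calls, 19 of them false) and the Tconv comparison 100% (200 calls, 0 false). The simulation gave all genes the same dispersion, and only genes with a control mean of at least 60 were changed. These shares therefore do not cover *S1pr5*, smaller changes or libraries that differ more than was set. The alternatives were other pseudocounts, minimum values and scalings, limma-voom on estimated reads, clone-named rows kept, each subset on its own, calls by adjusted p-value alone, and leaving out each library in turn.

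Genes named were the 7 genes, *Klf2*, *Cd27* and *Cd70*, at most 4 called genes per list and subset, the 3 nearest patterns, and defining markers; some genes that this rule names are not reported here. *Foxo1*, *St3gal1*, *Bcl2*, *Zeb2*, *S1pr2*, *Ezr*, *Msn* and the myeloid, erythroid and dendritic cell markers given with values were named after their values were seen. The 7 genes and the lists were chosen with earlier results of these data known. Positions were taken from GENCODE M21 (GRCm38, the assembly of mm10).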

Additional observations from a re-analysis of the deposited data

How the results depend on the processing

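The number of the 7 genes called in Tregs was 1, and became 4 without a threshold on the fold change and between 0 and 1 with 1 library left out. In Tconvs it was 1, and became 0 with a pseudocount of 1, with no minimum value and with a mean of at least 60, where *S1pr5* is not tested, 3 without the threshold on the fold change, and between 0 and 2 with 1 library left out. For the difference between the responses it was 0, and 1 with a pseudocount of 20, when *S1pr5* passed (adjusted p = 0.045) on Treg values under the floor. For Tregs against Tconvs in control mice it was 1, and became 2 under median-of-ratios factors, upper-quartile factors and limma-voom, 6 without the threshold on the fold change, and between 1 and 2 with 1 library left out, since *Gpr183* lies at the threshold. In CD70Tg mice it was 3, also with each library left out, 2 with a mean of at least 60 and 4 without the threshold on the fold change. With 1 library left out, the direction turned for 4 values that had not passed: *S1pr5* in Tregs (fitted values between -0.5 and 0.64, all from libraries under the floor and no measure of a change), *S1pr1* in Tconvs (-0.27 to 0.14), the difference for *S1pr1* (-0.36 to 0.06) and *Cd69* in CD70Tg mice, Tregs over Tconvs (-0.43 to 0.21). A group left with 1 library was assumed to vary like the others. No paired analysis was possible because the columns do not carry the replicate numbers of the sample titles. Depth limits *S1pr5* in Tregs, where 3 reads are worth up to 31.3.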

Other observations

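The nearest tested genes on each side of the 7 genes were read in the same fit. Next to *S1pr4*, at 2174 bases, lies *Gna15*, which encodes a G protein subunit of blood cells. It rose in Tconvs by 2.22 on the log2 scale (adjusted p = 5.0e-05) and in Tregs by 0.97 (adjusted p = 0.047), while *Ncln*, at 1355 bases on the other side, had 0.37 (adjusted p = 0.1) and -0.15 (adjusted p = 0.56). On the sides of *S1pr5*, *Keap1* had 0.09 in Tconvs (adjusted p = 0.81) and *Atg4d* -0.01 (adjusted p = 0.99). *Gpr18*, a receptor gene 36770 bases from *Gpr183* on the same strand, was lower in control Tregs than in control Tconvs, at -1.11 on the log2 scale (adjusted p = 5.3e-05), as *Gpr183* was. Between the genotypes it had -0.32 in Tregs (adjusted p = 0.28), while Tconvs had -0.11 (adjusted p = 0.81). The neighbours of *Cd44* and *Selplg* did not pass in either subset.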
